A study of Mus musculus with 6 samples.

Results

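The wide regions of the atlas are the accessible intervals that span more than 400 bases in the deposited table of ATAC-seq counts. They were chosen from the row coordinates, as end minus start above 400, and number 1487 of 74686 regions, which is 1.99% of the regions and 3.56% of the bases. The other 73199 regions are all exactly 400 bases long. The assayed cells were CD8 T cells of the OT1 type, which bear a transgenic receptor for an ovalbumin peptide. In all 6 libraries they were taken from mouse melanomas of the line B16-OVA-GP61, purified by flow cytometry on CD8 and CD45.1, and frozen with DMSO before the assay. A group of 3 libraries came from tumors without SMARTA cells, which are CD4 T cells with a transgenic receptor for the GP61 epitope, and a group of 3 came from tumors with them. The labels give no mouse strain, age or time of tumor collection, and they leave unsaid whether replicates are separate animals, and a p-value then reflects only the spread among these libraries, which may be technical.

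In ATAC-seq a transposase inserts adapters where DNA is not wrapped tightly by nucleosomes, so promoters and enhancers in use appear as peaks of reads, each with a summit. An atlas is commonly made by laying windows of one length on summits and counting reads in every window. Windows that overlap can be joined, and a joined window then spans neighbouring summits, as at a promoter with an enhancer close by or at an enhancer with several accessible elements. Whether the deposited atlas was joined in this way is not given in the sources used here. In bulk cells, fewer cells with an open site and less opening per cell cannot be told apart.

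The sequences that the wide regions hold can be read where an annotated promoter, here 250 bases before to 50 bases after a gene's start in RefSeq GRCm38.p6, lies wholly inside one. Of 32817 promoters in the table, 78 lay inside 74 wide regions. By the test described further on, 3 of these regions opened and 6 closed with SMARTA cells, beside 4.68% and 10.4% of all regions. The 3 opened and the 3 closed ones with the smallest p are shown because they are the promoter sequences whose whole length was counted in a changed wide region. Capitals mark exact matches, on either strand, to 9 motifs: TGANTCA (AP-1), TGACGTCA (CRE), CCGGAA (ETS), TGTGGT (RUNX), CTTTGA (TCF/LEF), GGGCGG (SP/KLF), CCAAT (NF-Y), TGGAAA (NFAT) and the NRF1 palindrome. B4galnt4, Herc4 and Wnk1 belong to opened regions, and Gm46107, Tcf12 and Gm29685 to closed ones.
B4galnt4 promoter, chr7:141060728-141061027, plus strand: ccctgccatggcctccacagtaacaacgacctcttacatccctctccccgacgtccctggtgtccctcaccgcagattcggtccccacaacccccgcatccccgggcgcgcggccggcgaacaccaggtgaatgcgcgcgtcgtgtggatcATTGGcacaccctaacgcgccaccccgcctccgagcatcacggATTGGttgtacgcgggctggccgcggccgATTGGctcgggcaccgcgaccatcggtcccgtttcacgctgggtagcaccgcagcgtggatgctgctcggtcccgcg
Herc4 promoter, chr10:63243547-63243846, plus strand: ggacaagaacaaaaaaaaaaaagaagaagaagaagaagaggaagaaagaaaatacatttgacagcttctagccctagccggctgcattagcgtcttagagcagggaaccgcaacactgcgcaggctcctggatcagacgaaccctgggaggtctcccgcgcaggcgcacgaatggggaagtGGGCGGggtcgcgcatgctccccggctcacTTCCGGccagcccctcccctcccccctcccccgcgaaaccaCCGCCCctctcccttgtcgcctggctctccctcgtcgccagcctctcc
Wnk1 promoter, chr6:120038606-120038905, minus strand: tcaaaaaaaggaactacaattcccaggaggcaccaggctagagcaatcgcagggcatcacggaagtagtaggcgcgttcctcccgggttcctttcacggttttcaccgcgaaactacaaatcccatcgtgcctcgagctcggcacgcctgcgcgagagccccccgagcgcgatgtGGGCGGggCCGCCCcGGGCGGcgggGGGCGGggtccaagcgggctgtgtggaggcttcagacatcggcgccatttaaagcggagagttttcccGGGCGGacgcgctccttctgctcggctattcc
Gm46107 promoter, chr9:37555194-37555493, plus strand: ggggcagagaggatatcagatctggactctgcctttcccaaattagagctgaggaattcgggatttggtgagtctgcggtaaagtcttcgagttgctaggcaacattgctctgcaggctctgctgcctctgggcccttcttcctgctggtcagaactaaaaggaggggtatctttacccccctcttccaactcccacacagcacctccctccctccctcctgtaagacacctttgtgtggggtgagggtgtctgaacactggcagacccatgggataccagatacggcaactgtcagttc
Tcf12 promoter, chr9:71896047-71896346, minus strand: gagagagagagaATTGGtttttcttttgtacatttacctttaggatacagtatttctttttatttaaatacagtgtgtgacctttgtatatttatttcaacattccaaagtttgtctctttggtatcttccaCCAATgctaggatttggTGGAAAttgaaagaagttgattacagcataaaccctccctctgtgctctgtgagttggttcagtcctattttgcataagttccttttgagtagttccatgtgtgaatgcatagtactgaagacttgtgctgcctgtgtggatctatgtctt
Gm29685 promoter, chr10:107946395-107946694, plus strand: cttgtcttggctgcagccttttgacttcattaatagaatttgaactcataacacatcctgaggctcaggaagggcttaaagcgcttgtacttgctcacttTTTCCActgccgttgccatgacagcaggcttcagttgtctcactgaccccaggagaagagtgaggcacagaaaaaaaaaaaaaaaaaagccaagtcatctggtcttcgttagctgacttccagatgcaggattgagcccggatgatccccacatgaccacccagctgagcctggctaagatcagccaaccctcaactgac

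The B4galnt4 promoter held 3 NF-Y matches, the Herc4 promoter 1 ETS and 2 SP/KLF matches, and the Wnk1 promoter 5 SP/KLF matches. Among the closed, the Tcf12 promoter held 2 NF-Y and 1 NFAT matches, the Gm29685 promoter 1 NFAT match, and the Gm46107 promoter none of the 9 motifs. No match overlapped another in these sequences. Their GC content was 68.0%, 60.7% and 63.7% in the opened and 54.0%, 36.3% and 48.0% in the closed, beside a median of 52.7% over all promoters and 55.7% over the 78 in wide regions. The SP/KLF letters stood in 42 of the 78 promoters (53.8%) and in 35.6% of all promoters, and the NF-Y letters in 39.7% against 37.4%. The AP-1 letters stood in 3.85% against 7.81%, the NFAT letters in 17.9% against 21.4%, the ETS letters in 16.7% against 14.9%, the RUNX letters in 12.8% against 16.8%, and the TCF/LEF letters in 11.5% against 16%. The NRF1 letters were found in 1.28% against 0.966% and the CRE letters in 0 of the 78 against 1.79%. These matches describe letters in a window and are not binding sites.

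The widths of the wide regions were far from even. The narrowest spanned 450 bases, the median 735 (quartiles 677.5 and 771) and the widest 1474. Of the 1487 regions, 121 were at most 600 bases wide, 1313 were wider than that and at most 799, and 53 exceeded 800, the narrowest of these at 852. No region had a width between 799 and 852 bases. The members nearest the 400-base limit were those at Myo1h (450 bases, chr5:114308875-114309325), Ddx11 (457 bases, chr17:66153118-66153575) and Ube2e3 (485 bases, chr2:78991114-78991599), with log2 folds of -0.01 ± 0.21, -0.11 ± 0.26 and -0.29 ± 0.24 (SE, 3 libraries against 3). None of these 3 passed the test, and just outside the limit stood the 400-base regions.

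**Figure D1:**
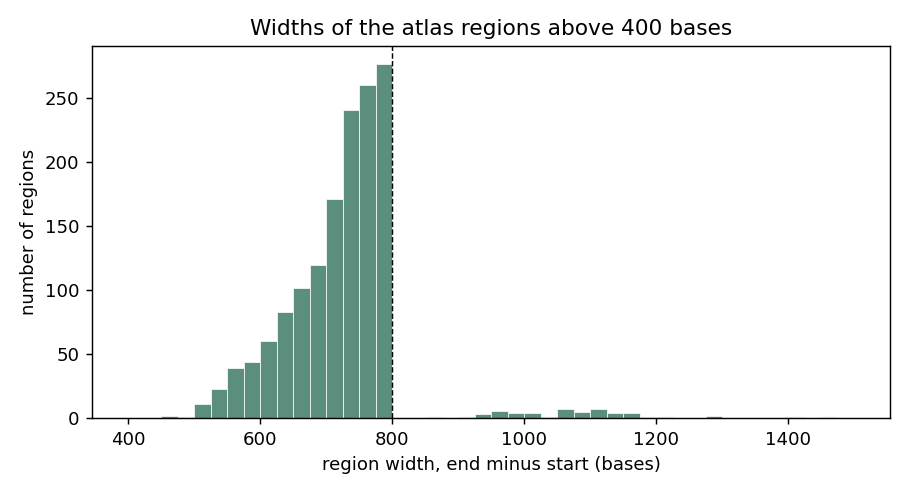
Number of wide regions (vertical axis) by width in bases (horizontal axis). Most of the 1487 regions lie between 600 and 800 bases, the count stops at 799, and 53 regions lie from 852 to 1474 bases.

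The peak lists, which the authors called in each library separately, held several peaks in almost every wide region. In 1479 of 1487 regions at least 1 list had 2 or more peaks. A point 200 bases inside each end of a region marks where the centre of a 400-base window would sit, and these points were a median of 335 bases apart. A deposited summit lay within 100 bases of the left point in 1479 regions, of the right point in 1474 and of both in 1466, in at least 1 of the 6 lists. Both points had a summit in all 6 lists in only 144 regions. In the 121 regions of at most 600 bases the points lie so close that 1 summit can count for both. This holds for all counts of both summits, here and below. No atlas region overlapped another.

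Within single libraries the pair of peaks was often incomplete. Without SMARTA cells 47.7%, 69.3% and 64.6% of wide regions held 2 or more peaks of the library's own list in replicates 1, 2 and 3, and with SMARTA cells 51.8%, 27.5% and 59.9% did. Replicate 2 with SMARTA cells was the lowest, and the groups overlapped. The 95% Wilson interval, which covers counting error over regions only, was 25.3% to 29.8% for the lowest library and 66.9% to 71.6% for the highest. The means were 60.5% ± 11.4 and 46.4% ± 16.8 (SD, n = 3 each), a difference of -14.1 percentage points (exact two-sided permutation p = 0.3, 0.4 after Benjamini-Hochberg adjustment over 4 measures, where 0.1 is the smallest p that 3 against 3 allows). Wide regions with no peak at all made up 15.7%, 6.99% and 7.33% without SMARTA cells and 13.9%, 31.5% and 15.5% with them (exact permutation p = 0.3). Replicate 2 with SMARTA cells also had the fewest counts in the atlas and the shortest peak list, and the difference was -4.71 points without it. The part of depth in these shares was not tested. Among 400-base regions 2.11% to 2.98% held 2 or more peaks in a library.

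**Figure D2:**
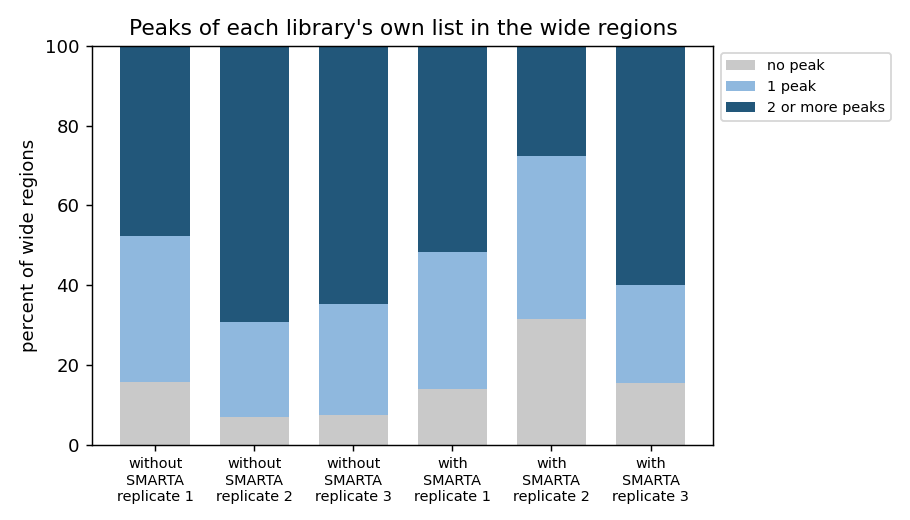
Share of the 1487 wide regions (vertical axis, percent) with no peak, 1 peak or 2 or more peaks in the list of each of the 6 libraries (horizontal axis). The share with 2 or more peaks runs from 27.5% in replicate 2 with SMARTA cells to 69.3% in replicate 2 without them, and the groups overlap.

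Counts of wide regions were set beside those of 400-base regions in each library, as CPM (a count scaled to a common library total). The median over wide regions was 4.83, 4.5 and 4.5 CPM in the libraries without SMARTA cells and 4.12, 4.27 and 4.27 in those with them, and over 400-base regions it was 4.38, 4.38 and 4.42 without and 4.12, 3.73 and 4.04 with. At the median, wide regions thus held as many counts as 400-base regions or more. Divided by width the order turned: the median was 6.63, 6.27 and 6.29 CPM per kb without and 5.73, 5.92 and 5.98 with SMARTA cells in wide regions, and 11, 11 and 11.1 without and 10.3, 9.32 and 10.1 with in 400-base regions. The ratio of the per-kb medians was 0.587, but it divides by the width that chose the regions, so it is given as a description with no test. The strongest deposited peak in a region had a lower fold enrichment over background in wide regions, with medians of 3.66 to 4.52 in wide and 5.15 to 6.67 in 400-base regions. That ratio was 0.694 (mean log2 ratio -0.53 ± 0.04, SD, n = 6; exact two-sided sign-flip permutation p = 0.031, the smallest p that 6 libraries allow), and all 6 libraries had the lower median in wide regions. The libraries measure the same regions, so this p reflects only their agreement and not a spread over regions. Whether enrichment is also tied to the choice of the regions was not tested. The widest single peak in a wide region had a median length of 273 to 319 bases, against 548 to 591 in 400-base regions. This last measure is tied to the choice of the regions and was not tested.

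The share of a library's atlas counts that fell in wide regions was 1.544%, 1.464% and 1.496% without SMARTA cells and 1.448%, 1.357% and 1.460% with them. Each was below the 1.99% of atlas regions that are wide. The libraries without SMARTA cells all lay above those with them, by a narrow margin (1.50% ± 0.0400 against 1.42% ± 0.0561, SD, n = 3 each). The difference of -0.0795 percentage points had an exact permutation p of 0.1, the smallest possible, and 0.4 after adjustment over 4 measures. It was -0.0473 without replicate 2 with SMARTA cells. The log2 ratio of the per-kb medians differed between the groups by 0.0288 (exact permutation p = 0.7), and by -0.0201 without that library.

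The position of wide regions relative to genes was compared with that of 400-base regions as a description, without a test. Positions and distances are those of a region's midpoint. A boundary of a protein-coding gene was within 1 kb of 170 wide regions, or 11.4%, against 18% of 400-base regions. A RefSeq promoter overlapped 112 of 1438 wide regions (7.79%) and 13.3% of 400-base regions, chromosome 18 being outside the promoter table. The share inside a gene was 58.7% against 57.3%, the median distance to the nearest transcription start was 13.6 kb against 14.6 kb, and 61 wide regions (4.1%) had no gene within 100 kb. The 53 regions above 800 bases had a boundary within 1 kb in 20.8%. The 1487 regions fell in or near 1248 genes, and chromosome 11 held most of them, 122. As a share of a chromosome's regions they ranged from 1.45% on chromosome 8 to 2.65% on chromosome X, with 0 of 6 regions on Y.

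The libraries as a whole held 16595779 to 27182809 counts in the atlas and 65020 to 82089 peaks in their own lists. The median wide region had 71 to 117 counts per library, and the lowest had 1 to 25. Across wide regions log2 CPM correlated at 0.924 to 0.977 within the groups and at 0.853 to 0.910 for pairs from different groups, and these regions share their libraries. Replicate 2 with SMARTA cells stood apart from its group mates on the second principal component of all regions (89.06 against -72.12 and -36.57). Summed CPM in regions within 1 kb of a gene boundary ran from 333 to 354 without and from 362 to 388 with SMARTA cells for 6 of 6 CD8 T cell markers. It was 198 to 214 against 215 to 235 for 3 of 10 melanoma markers, with no region at Tyr, Tyrp1, Slc45a2 or Oca2. Among these 3 is Pmel, where a region 0.2 kb from a gene boundary overlaps the Cdk2 promoter (log2 CPM 5.41 without and 5.34 with). The melanoma sum is therefore not of melanoma genes alone. Summed CPM was 67.3 to 80.2 against 87.6 to 96.6 for 3 of 7 CD4 and regulatory T cell markers, with no such region at Cd4 or Foxp3. It was 65.6 to 76.3 against 56.5 to 68.5 for 6 of 16 myeloid markers, with no region at Lyz2, C1qa or C1qb, and 30.0 to 44.3 against 23.8 to 31.3 for 4 of 8 B cell markers, with no region at Ms4a1 or Cd79a. For 1 of 5 NK cell markers it was 7.07 to 8.22 against 3.44 to 7.03, and for 3 of 9 stromal and endothelial markers 26.3 to 28.0 against 27.1 to 27.4. The CD8 T cell, melanoma, CD4 T cell and NK cell ranges did not overlap between the groups, and the part of other cells in the results that follow was not tested.

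With SMARTA cells more wide regions closed than opened. By edgeR's quasi-likelihood test over all 74686 regions, with Benjamini-Hochberg adjusted p below 0.05, 156 of 1487 wide regions closed (10.5%, beside 10.4% of all regions) and 38 opened (2.56%, beside 4.68% of all regions). In either direction 194 were called, or 13.0% beside 15.1%. The closed share is near that of the atlas, and the opened share is below it. A change of 2-fold or more was called in 114 closed wide regions (7.67%, beside 8.29%) and 14 opened ones (0.941%, beside 1.17%). The 3 libraries with SMARTA cells lay wholly below the others in 300 wide regions (20.2%, beside 18.5%) and wholly above in 166 (11.2%, beside 15.7%), or 466 in either direction (31.3%, beside 34.2%). The median log2 fold over wide regions was -0.06, beside 0.01 over the atlas. Closed wide regions had a median log2 fold of -1.26 (range -2.78 to -0.31) and opened ones 0.88 (range 0.17 to 1.59). They lay in or near 141 and 36 genes, and no gene had both. At all 156 closed and all 38 opened regions the groups did not overlap, so at a called region this adds nothing to the call. Closed wide regions numbered 83 when replicate 3 with SMARTA cells was dropped, beside 5.9% of all regions. They numbered 104 when replicate 2 or 3 lacking SMARTA cells was dropped, beside 6.64% and 6.49% of all regions. Dropping replicate 1, 2 or 3 of the group lacking SMARTA cells left 21, 17 and 17 opened wide regions, beside 2.42%, 1.7% and 1.64% of all regions. Dropping replicate 3 with SMARTA cells left 22, beside 2.39%, and dropping replicate 2 of that group left 67, beside 5.7%. The whole atlas thus fell and rose with the wide regions.

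Calls differed by the mean log2 CPM of a region. Over 5 equal classes of all atlas regions by mean log2 CPM, wide regions numbered 38, 421, 465, 343 and 220 from the lowest to the highest. Of these, 0, 3, 7, 14 and 14 opened, or 0%, 0.713%, 1.51%, 4.08% and 6.36%, against 1.07%, 2.75%, 4.24%, 5.69% and 9.89% of 400-base regions in the same classes. The opened share was lower among wide regions in all 5 classes. Mean log2 CPM is not divided by width, so at equal CPM a wide region has fewer counts per kb. The classes are thus alike in counts per region and not in accessibility per base. Closed wide regions numbered 9, 57, 52, 30 and 8, or 23.7%, 13.5%, 11.2%, 8.75% and 3.64%, against 10.7%, 13.3%, 14.2%, 10.6% and 3.21%. The closed share was higher among wide regions in the lowest, second and highest classes and lower in the other two. By width, 12 closed (9.92%) and 1 opened (0.826%) of 121 regions up to 600 bases. From there to 800 bases, 141 closed (10.7%) and 35 opened (2.67%) of 1313. Above 800 bases, 3 closed (5.66%) and 2 opened (3.77%) of 53. Among 400-base regions 10.4% closed and 4.73% opened. A boundary was within 1 kb of 15.8% of opened and 4.49% of closed wide regions. These shares are described without a test.

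**Figure D3:**
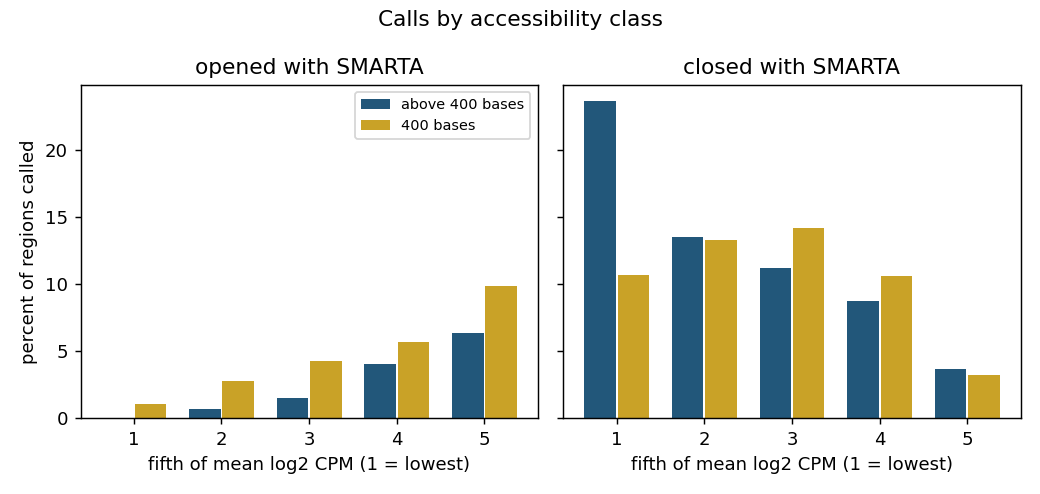
Percent of regions opened or closed with SMARTA cells (vertical axis) in 5 equal classes of all atlas regions by mean log2 CPM (horizontal axis), for wide and for 400-base regions. Mean log2 CPM is per region and not divided by width. The opened share of wide regions rises from 0% to 6.36% and lies below that of 400-base regions in each class, while the closed share falls from 23.7% (9 of 38 regions) to 3.64%.

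The deposited summits moved with the counts of the called regions, though both come from the same reads and are not independent. Among the 156 closed regions, both outer summits were listed in at least 2 of 3 libraries in 147 without SMARTA cells and in 11 with them. Of those 147, 11 kept both summits, 37 kept one and 99 kept neither. Among the 38 opened regions, both summits were listed in 13 without and 34 with SMARTA cells, and of the 34, 14 had one and 7 had neither without them. In 0 wide regions was one summit in all 3 lists of one group only and the other in all 3 lists of the other group only. In 79 wide regions one summit was in more lists with SMARTA cells and the other in fewer. Over all wide regions both summits were listed in 863 without and 606 with SMARTA cells. A further pattern, in which one summit was in all 6 lists and the other in all 3 of one group and 0 of the other, held in 31 wide regions. Of these, 2 were called, beside 13.0% of wide regions and 15.1% of all regions.

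Those 2 were at B4galnt4, which opened, and at Zfp41, which closed. B4galnt4, the gene of an N-acetylgalactosaminyltransferase that makes LacdiNAc sugar chains, had the opened wide region with the smallest p. This 1117-base region (chr7:141060053-141061170) spans the gene's start and holds the promoter shown above. Its log2 CPM was 4.35, 4.09 and 4.19 in replicates 1, 2 and 3 without SMARTA cells and 5.21, 5.36 and 5.37 with them. The libraries with SMARTA cells were all higher, with no overlap (log2 fold 1.11 ± 0.12, SE, n = 3 each; edgeR adjusted p = 0.00045). Its left summit was in 0 lists without and 3 lists with SMARTA cells, and its right summit was in all 6. At Zfp41, a zinc finger gene 6.25 kb away (chr15:75633325-75634078), log2 CPM was 3.57 ± 0.23 without and 2.33 ± 0.10 with SMARTA cells (SD, n = 3 each; log2 fold -1.26 ± 0.20, edgeR adjusted p = 0.0026). There the left summit stayed in all 6 lists and the right one was in 3 lists without and 0 with. Zfp41 was chosen after its values were seen.

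Several of the other opened regions with small p lay inside genes. Slco3a1, an organic anion transporter, holds 2 opened wide regions. In the first (chr7:74551618-74552354) log2 CPM was 3.81, 4.15 and 4.33 without and 5.36, 5.18 and 5.52 with SMARTA cells and the groups did not overlap. Its log2 fold was 1.25 ± 0.15 (edgeR adjusted p = 0.00077), and both summits were in all 6 lists. The second (chr7:74544367-74545166) had a log2 fold of 0.83 ± 0.19 (adjusted p = 0.015), a call that was lost without any single library of the group lacking SMARTA cells (highest adjusted p 0.063).

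Cnr2, the gene of the cannabinoid receptor found mainly on immune cells, had the largest fold among opened wide regions. In its region inside the gene (chr4:135904390-135905179) log2 CPM was 2.24, 1.8 and 2.39 without and 3.54, 3.98 and 3.67 with SMARTA cells. All libraries with SMARTA cells were higher (log2 fold 1.59 ± 0.22, edgeR adjusted p = 0.0015), and the left summit was in 0 lists without and 2 with. Znrf1, a ubiquitin ligase, had 1.34, 1.24 and 1.82 without and 2.88, 3.15 and 3.03 with SMARTA cells inside the gene (chr8:111563677-111564430; log2 fold 1.56 ± 0.22, adjusted p = 0.0013). The groups did not overlap there either. Cyren, a regulator of DNA end joining, had 2.74, 2.37 and 2.63 without and 3.59, 3.98 and 3.72 with (chr6:34875202-34875810; log2 fold 1.20 ± 0.20, adjusted p = 0.0033). No list without SMARTA cells had a summit at either outer point of the Cyren region, while 3 and 2 lists with them did.

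Of the remaining opened regions among the 10 with the smallest p, 1 had no gene within 100 kb (chr2:48472720-48473463, log2 fold 1.34 ± 0.18, adjusted p = 0.0012). Others lay 33.4 kb from Irf2bp2, a transcriptional corepressor partner of IRF2 (1.39 ± 0.27, adjusted p = 0.0067), and inside Hecw2, another ubiquitin ligase (0.80 ± 0.15, adjusted p = 0.0068). The last were at 1810058I24Rik (1.03 ± 0.18) and 1700029F12Rik (1.02 ± 0.20). All 10 passed the test with any 1 library left out. Over all 38 opened regions 11 did so.

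The closed wide regions with the smallest p showed larger folds than the opened ones. Nrgn encodes neurogranin, a calmodulin-binding protein best known from neurons. The region 2.51 kb from it (chr9:37554874-37555642), which holds the Gm46107 promoter shown above, had log2 CPM of 3.48, 3.68 and 3.65 without and 1.40, 1.01 and 1.18 with SMARTA cells. All libraries with SMARTA cells were lower by over 2 on the log2 scale (log2 fold -2.45 ± 0.20, n = 3 each; edgeR adjusted p = 0.00022). Its summits were in 2 and 3 lists without SMARTA cells and in none with them.

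Regions near the surface protein genes Cd9, Clec2d and Sdc1 closed. Cd9 is a tetraspanin, and the region 26.6 kb from it (chr6:125433294-125434057) had 3.05, 3.28 and 3.49 without and 0.60, 1.05 and 0.83 with SMARTA cells (log2 fold -2.51 ± 0.22, edgeR adjusted p = 0.00026). Clec2d encodes a lectin-like ligand of an NK cell receptor, and the region 39.1 kb from it (chr6:129225264-129226040) had 4.02, 4.53 and 4.13 without and 2.06, 1.39 and 1.62 with (-2.56 ± 0.24, adjusted p = 0.0003). In both regions the groups were far apart. Sdc1 encodes syndecan-1, a heparan sulfate proteoglycan, and the region 53.7 kb away (chr12:8847127-8847763) had 3.75, 3.79 and 4.07 without and 2.22, 1.45 and 1.50 with (-2.14 ± 0.25, adjusted p = 0.0006). The groups did not overlap at Sdc1 either.

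The largest fold of all wide regions was inside Endod1, a gene of an endonuclease domain protein (chr9:14375774-14376528). Its log2 CPM was 3.03, 3.38 and 3.29 without and 0.60, 0.97 and -0.02 with SMARTA cells, with no overlap (log2 fold -2.78 ± 0.27, edgeR adjusted p = 0.00032). Other closed regions of this group were inside Prkrip1 (-2.49 ± 0.24), inside Dao, the gene of D-amino acid oxidase (-2.12 ± 0.21), near Vcl, the gene of the adhesion protein vinculin (-2.06 ± 0.23), and without a gene within 100 kb (chr14:105615420-105616204, -2.30 ± 0.21). At Dao the left summit stayed in 2 lists with SMARTA cells and the right in 0. Ralgps1, an exchange factor of Ral GTPases, had 2 closed wide regions, at chr2:33179480-33180210 (-1.95 ± 0.21, adjusted p = 0.00042) and chr2:33176527-33177294 (-1.31 ± 0.23, adjusted p = 0.0045). All 10 closed regions with the smallest p passed with any 1 library left out, as did 69 of the 156.

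The other changed regions with a promoter printed above had smaller folds than Nrgn. Herc4 encodes a ubiquitin ligase, and its region opened (chr10:63243161-63243959; log2 CPM 6.25 ± 0.07 without and 6.5 ± 0.01 with, SD, n = 3 each; log2 fold 0.24 ± 0.06, edgeR adjusted p = 0.029). The call was lost without replicate 1 with SMARTA cells or any library of the other group (highest adjusted p 0.1), with loess offsets (0.29) and by DESeq2 (0.11). Tcf12 encodes HEB, an E protein of T cell development, and its region closed (chr9:71895970-71896728; 2.47 ± 0.50 without and 1.16 ± 0.12 with; -1.39 ± 0.27, adjusted p = 0.0068) and passed with any 1 library left out. This region lies inside the gene, 52.1 kb from the nearest gene boundary, so the Tcf12 promoter printed belongs to an annotated start within the gene. The region with the Gm29685 promoter, 34.2 kb from Otogl, closed (chr10:107946323-107946910; 2.19 ± 0.22 without and 1.08 ± 0.37 with; -1.12 ± 0.24, adjusted p = 0.012), a call lost without replicate 2 lacking SMARTA cells or replicate 3 with them (highest 0.064).

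**Figure D4:**
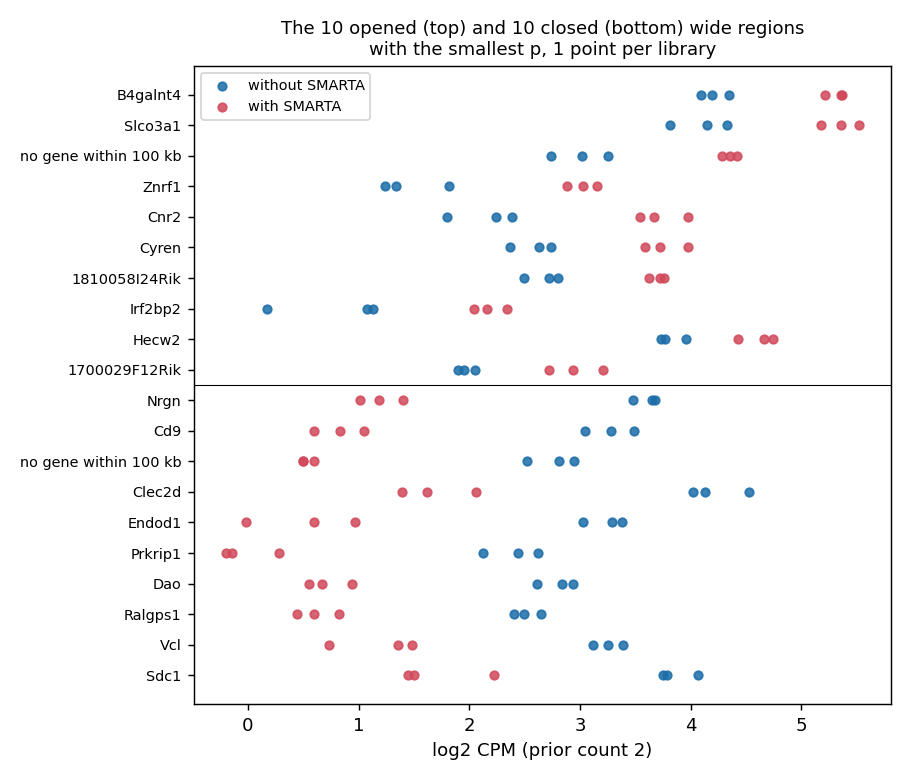
Log2 CPM (horizontal axis) of each library in the 10 opened and the 10 closed wide regions with the smallest p (vertical axis), without and with SMARTA cells. Rows were chosen among regions whose groups do not overlap. By that choice, the 3 points of one group lie wholly to one side of the 3 points of the other.

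Besides Slco3a1 and Ralgps1, more than 1 called wide region lay at Tspan2. This gene of a tetraspanin had 2 closed regions (log2 folds of -1.91 ± 0.28, edgeR adjusted p = 0.0019, and -1.13 ± 0.22, adjusted p = 0.0075).

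The nearest 400-base region within 5 kb often moved in the same direction as a called wide region. Of 106 closed wide regions with such a neighbour, the neighbour closed in 43 (40.6%) and opened in 2. Of 31 opened wide regions with one, it opened in 10 (32.3%) and closed in 0. Beside 873 wide regions that were not called, 72 neighbours closed (8.25%) and 33 opened (3.78%). Median neighbour folds were -0.66, 0.35 and 0.01 on the log2 scale beside closed, opened and uncalled wide regions. The neighbours share the libraries, so these counts are described without a test. The neighbour closed at Nrgn (-2.14 ± 0.33, edgeR adjusted p = 0.0024) and Prkrip1 (-2.72 ± 0.26), and did not pass at Cd9 (-0.31 ± 0.28, adjusted p = 0.52) or Clec2d (-0.30 ± 0.26, adjusted p = 0.49). It opened at Slco3a1 (0.51 ± 0.10), B4galnt4 (1.30 ± 0.25) and Znrf1 (1.34 ± 0.31), and did not pass at Cnr2 (0.75 ± 0.29, adjusted p = 0.11), 1810058I24Rik (0.66 ± 0.20, 0.053), Cyren (0.24 ± 0.08, 0.065) and Hecw2 (-0.63 ± 0.25, 0.12), the last of opposite sign. One of the 2 opposite pairs was at Car6, a carbonic anhydrase, where the wide region closed (-1.48 ± 0.23, adjusted p = 0.0026) and the neighbour opened (0.60 ± 0.18, adjusted p = 0.047). Car6 was chosen after its values were seen.

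The widest and the most accessible wide regions had small folds. Wnk1, a kinase of ion transport, has the widest (1474 bases, chr6:120038564-120040038), which holds its promoter. Its log2 CPM was 7.20, 7.16 and 7.16 without and 7.32, 7.33 and 7.39 with SMARTA cells, apart by a small margin (log2 fold 0.17 ± 0.05, edgeR adjusted p = 0.035). The call was lost without replicate 1, 2 or 3 of the group lacking SMARTA cells or replicate 3 with them (highest adjusted p 0.15), with total-count scaling (0.13), with a mean count filter (0.11) and by DESeq2 (0.22), and the fold was -0.04 with loess offsets. The next widest, at Ugp2 (1424 bases, log2 fold -0.39 ± 0.20), Ap3s1 (1298 bases, 0.04 ± 0.21), Elf1, an ETS factor of T cells (1275 bases, -0.21 ± 0.19), and Cd6, a T cell surface receptor (1221 bases, 0.28 ± 0.19), did not pass.

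Per kb, the most accessible were the regions at Esyt1 (a mean of 174 CPM per kb), at the Hnrnpf promoter inside 4933440N22Rik (171), at Zbtb7a (154), at Ubb (152) and inside Tex14 (120). Esyt1, a tether between endoplasmic reticulum and plasma membrane, opened slightly (log2 fold 0.17 ± 0.05, edgeR adjusted p = 0.049), but the call was lost when any single library was left out (highest adjusted p 0.2). With every library kept, it was also lost with total-count scaling (adjusted p = 0.14), with a mean count filter (0.11) and by DESeq2 (0.25), and the fold was -0.02 with loess offsets. Tex14 closed (-0.31 ± 0.09, adjusted p = 0.034), a call lost without any library other than replicate 2 with SMARTA cells (highest adjusted p 0.14) and by DESeq2 (0.11). The other 3 did not pass, with folds of 0.13 ± 0.06, 0.15 ± 0.05 and 0.18 ± 0.08, and with loess offsets their folds were -0.06, -0.04 and -0.02 (4933440N22Rik, Zbtb7a and Ubb).

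Genes from 12 lists, of T cell function and of cell cycle, ribosomal and glycolysis genes, held 61 wide regions at 51 of 221 listed symbols. Of these regions, 9 closed and 2 opened, where 10.4% of all regions closed and 4.68% opened (18% called, beside 15.1% of all regions). Their median log2 fold was -0.11, beside -0.06 over all wide regions. Exhaustion factors are transcription factors that hold chronically stimulated T cells in a dysfunctional state. At 8 of 16 such genes there were 11 wide regions, of which 3 closed and 0 opened (median log2 fold -0.32), where 10.4% of all regions closed and 4.68% opened. Over all 280 atlas regions at the listed exhaustion factors 77 closed and 11 opened, with the same median of -0.32. The lean is thus not particular to their wide regions. By DESeq2 3 closed and 0 opened too, and at an unadjusted p under 0.05 edgeR had 5 lower and 1 higher. DESeq2 called 15.8% of all regions in either direction, beside 15.1% by edgeR. The unadjusted threshold is looser than the adjusted one, and the share of all regions that pass it was not determined. Counts at an unadjusted p, here and for the lists below, therefore cannot be read as an excess or a lack. Nfatc1, the calcium-dependent factor NFAT2, closed inside the gene (chr18:80654449-80655152). Its log2 CPM was 2.67, 2.95 and 2.82 without and 1.34, 1.21 and 1.22 with SMARTA cells, with the groups far apart (log2 fold -1.60 ± 0.19, edgeR adjusted p = 0.00066), and it passed with any 1 library left out.

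Tox and Tox2 closed as well, but their calls were lost when some libraries were left out. Tox, a high-mobility-group factor of exhausted cells, had 2.08, 1.17 and 1.45 without and -0.51, 1.05 and 0.19 with SMARTA cells (chr4:6772000-6772792; log2 fold -1.31 ± 0.39, edgeR adjusted p = 0.046). Replicate 2 with SMARTA cells came close to the other group, and leaving out any other library ended the call (highest adjusted p 0.16), as did total-count scaling (0.05). Its relative Tox2 had 2.58, 3.28 and 2.49 without and 1.99, 0.92 and 1.71 with, at 36.7 kb (chr2:163166012-163166755; -1.24 ± 0.30, adjusted p = 0.022), lost without replicate 2 of the group lacking SMARTA cells or replicate 3 with them (highest 0.087). Batf (-0.58 ± 0.22, adjusted p = 0.11) and Nr4a3 (-0.78 ± 0.25, 0.057) did not pass, nor did Irf4, Prdm1 and Rbpj (folds of -0.32, -0.16 and 0.32).

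At inhibitory receptors, which restrain activated T cells, 4 genes had 1 wide region each, of which 1 closed, where 10.4% of all regions did. Over all 140 atlas regions at the listed receptor genes 30 closed and 3 opened (median log2 fold -0.29). Cd38, an ectoenzyme that consumes NAD, had, at 2.84 kb (chr5:43914816-43915615), 3.74, 3.58 and 3.46 without and 3.01, 1.32 and 2.53 with SMARTA cells (log2 fold -1.15 ± 0.34, edgeR adjusted p = 0.043). Replicate 2 with SMARTA cells was the lowest by far, and the call was lost without any library of the group lacking SMARTA cells or replicate 3 with them (highest 0.12). The regions at Ctla4 (0.10), Entpd1 (-0.30) and Vsir (0.13) did not pass.

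Costimulatory receptors and ligands, which strengthen T cell activation, had 6 wide regions at 5 genes, of which 4 closed and 0 opened (median log2 fold -0.64, beside 10.4% and 4.68% of all regions), the same counts as by DESeq2 and at an unadjusted p under 0.05. Over all 195 atlas regions at the listed genes 33 closed and 12 opened (median log2 fold -0.11). Cd226, an activating receptor for nectin family ligands, closed inside the gene (chr18:89219468-89220161) from 2.42, 2.75 and 2.91 to 1.74, 1.42 and 1.66 (log2 fold -1.12 ± 0.21, edgeR adjusted p = 0.0059), without overlap, and passed with any 1 library left out. Tnfsf11, the gene of RANKL, closed 13.4 kb away (chr14:78321034-78321826; -0.97 ± 0.20, adjusted p = 0.011), with an adjusted p of 0.052 without replicate 2 of the group lacking SMARTA cells. Tnfrsf9, the gene of 4-1BB (chr4:150937669-150938455; -0.82 ± 0.20, adjusted p = 0.021), and Cd2, an adhesion receptor (chr3:101279945-101280678; -0.45 ± 0.13, adjusted p = 0.044), closed too. The first was lost without replicate 1 or 3 of the group lacking SMARTA cells or replicate 3 with them (highest 0.097), and the second without replicate 2 or 3 of the former or 1 or 3 of the latter (highest 0.18) and with RLE scaling (0.052).

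T cell receptor signalling genes had 15 wide regions at 10 genes, of which 1 closed and 1 opened, where 10.4% of all regions closed and 4.68% opened. Over all 406 atlas regions at the listed genes 51 closed and 7 opened (median log2 fold -0.08). Fyn, a Src family kinase, had 2.48, 3.64 and 3.61 without and 1.40, 1.57 and 1.59 with SMARTA cells inside the gene (chr10:39430399-39431182). The groups did not overlap (log2 fold -1.84 ± 0.30, edgeR adjusted p = 0.0033), and the call was kept with any 1 library left out. Plcg1, a phospholipase that produces second messengers, opened from 3.17, 3.11 and 3.22 to 4.12, 3.47 and 3.87 (chr2:160755282-160755995; 0.68 ± 0.20, adjusted p = 0.046), a call that leaving out 1 library ended except for replicate 2 with SMARTA cells (highest 0.14), as did total-count scaling (0.051). Regions at Lck (0.36), Cd3d (0.24), Cd8b1 (-0.05), Prkcq (-0.06), Nfkb1 (-0.54), Cd8a (-0.59), Cd6 (-0.60) and Cblb (-0.67) did not pass. At an unadjusted p under 0.05 this list had 5 lower and 2 higher, and DESeq2 called 2 closed and 1 opened.

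Among AP-1, NF-kB and interferon factors, 5 genes had a wide region and 1 opened, where 4.68% of all regions did. Over all 234 atlas regions at the listed factors 58 closed and 8 opened (median log2 fold -0.13). Nfkbia, the inhibitor of NF-kB, had 5.58, 5.45 and 5.38 without and 5.91, 5.59 and 6.12 with SMARTA cells at 0.39 kb (chr12:55488640-55489399; log2 fold 0.42 ± 0.12, edgeR adjusted p = 0.044). Replicate 2 with SMARTA cells lay just above the other group, and the call was kept only without it (highest 0.15). It was also lost with total-count scaling (0.067), loess offsets (0.12), a mean count filter (0.059) and DESeq2 (0.061). Naive, memory and progenitor genes had 7 wide regions, 0 of them called by edgeR (median log2 fold 0.43), with 3 at an unadjusted p under 0.05 and 2 opened by DESeq2. The wide regions differed here from the loci as a whole. Over all 412 atlas regions at these genes 17 opened and 70 closed (median log2 fold -0.05), beside 4.68% and 10.4% of all regions. The largest fold of the wide ones was at Il7r, the interleukin 7 receptor (1.42 ± 0.44, edgeR adjusted p = 0.055), followed by Satb1 (0.58), S1pr1 (0.52) and Myb (0.43). The 19 cytotoxic and effector molecule genes had 163 atlas regions, of which 0 were wide. Effector differentiation, chemokine receptor, cell cycle, ribosomal and glycolysis lists had 3, 4, 2, 1 and 3 wide regions, 0 of them called by edgeR, with 0, 1, 2, 0 and 0 at an unadjusted p under 0.05 and 0, 1, 0, 0 and 0 called by DESeq2. Among them were Cxcr3, a chemokine receptor of effector T cells (0.89 ± 0.28, adjusted p = 0.055), and Mki67, a proliferation marker (0.65, adjusted p = 0.075). Of the marker lists of other cells, only that of melanoma cells had a wide region, at Pmel, where it overlaps the Cdk2 promoter (-0.06).

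**Figure D5:**
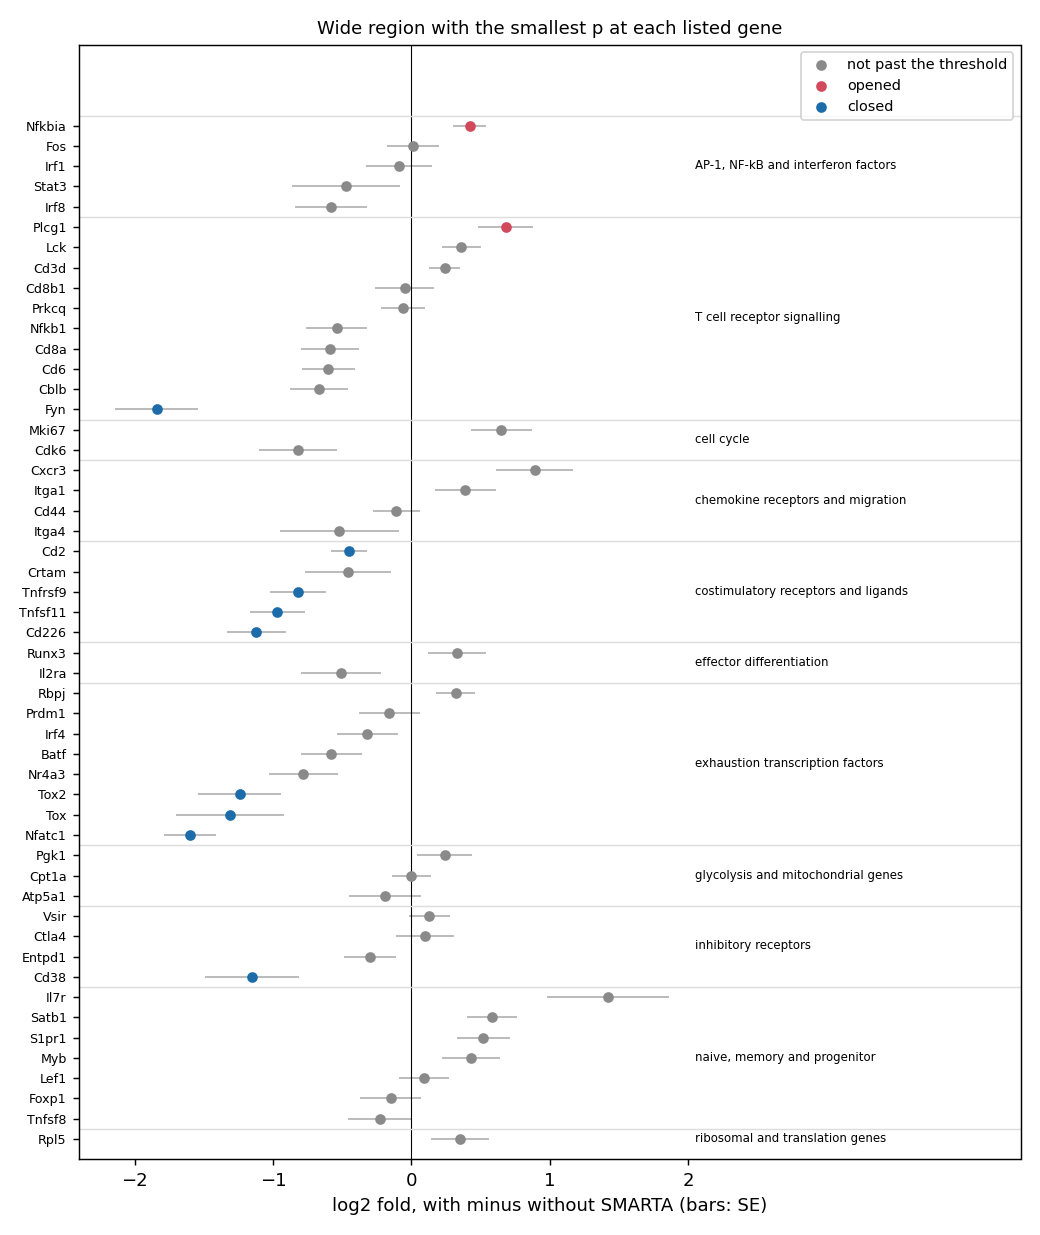
Log2 fold with against without SMARTA cells (horizontal axis, bars are SE, n = 3 each) for the wide region with the smallest p at each of 51 listed genes (vertical axis), grouped by list. Closed regions run from Fyn at -1.84 to Cd2 at -0.45, and the 2 opened ones are Plcg1 at 0.68 and Nfkbia at 0.42.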

How the data were processed

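ATAC-seq of OT1 CD8 T cells gave 6 libraries in 2 groups of 3, assigned from the sample titles. The count table was deposited by the authors as whole-number read counts per region without normalization. The deposited peak lists give each peak's score, fold enrichment (a ratio over background), −log10 p, −log10 q and summit offset, per the file columns. Tools listed in the submitters' processing notes are DiffBind 3.4.11, MACS2 2.1.1, Picard 2.18.9, SAMtools 1.8 and BWA 0.7.17, with GRCm38 as the build. What each did, whether duplicates were removed or reads shifted, and what set the region widths is not given in the sources used here. Any duplicates left in would raise counts.

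Counts of all regions were fitted with edgeR 4.0.16 under R 4.3.3: TMM scaling, filterByExpr (0 regions removed), glmQLFit, glmQLFTest and Benjamini-Hochberg adjustment over all regions, threshold 0.05. Opened means higher with SMARTA cells and closed means lower. Log2 CPM used a prior count of 2. The fit was tested on simulated data. No pair of libraries agreed within sampling noise (lowest chi-square per degree of freedom 2.76). Single values per library were compared by exact permutation. The sign-flip test of wide against 400-base regions was added after seeing the data.

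Regions were assigned to the protein-coding gene that holds their midpoint, or the nearest within 100 kb, in the RefSeq table of GRCm38.p6, a choice by position only. Distances run from a region's midpoint. Exons and introns were not distinguished, and the sequences used were those of the RefSeq promoter table alone. Positions are printed as deposited.

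The wide regions, gene lists, motifs and rules were chosen with earlier results of these data known. Named regions are the 10 opened and 10 closed with the smallest p and groups that do not overlap, the 5 widest, the 5 with the highest CPM per kb, the smallest-p region of each listed gene, and genes with 2 or more called wide regions. Promoters printed are the 3 opened and 3 closed with the smallest p. Alternatives were total-count, RLE and loess scaling, DESeq2 1.42.0, filters on low counts, a replicate block, other width limits and leaving out each library. Results at some items that the rules selected are not reported here, and 1 gene was taken out of the lists for that reason.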

Additional observations from a re-analysis of the deposited data

How the results depend on the processing

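Leaving out each library in turn gave 17 to 67 opened and 83 to 176 closed wide regions, against 38 and 156 with all 6. Over all regions the opened share then ran from 1.64% to 5.7% and the closed share from 5.9% to 11.3%, against 4.68% and 10.4%. The other alternatives left both counts within 1.5 times: DESeq2 gave 51 and 173, total-count scaling 32 and 170, loess offsets 46 and 162, and a mean count of 50 or more 37 and 135. Leaving out replicate 2 with SMARTA cells turned the group difference in the log2 ratio of CPM per kb to -0.0201, with a range of -0.0201 to 0.0757 over the 6 left-out libraries. The cause was not tested. The share of wide regions near a gene boundary was 6.99% within 500 bases and 18.9% within 2 kb, because the distance itself changed. Among called regions selected by the rules, loess offsets turned the folds at Wnk1 (-0.04, adjusted p = 0.74) and Esyt1 (-0.02, adjusted p = 0.86). Uncalled folds turned too at Zbtb7a (-0.04), Ubb (-0.02) and 4933440N22Rik (-0.06), and the cause was not tested. Of 1142 comparisons of 88 regions selected by the naming rules with an alternative, 1053 stayed on the same side of the threshold without reversing a call, though in 27 of these the fold of an uncalled region changed sign, 67 lost the call, 20 gained it and 2 reversed.

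With the replicate number as a block, 35 wide regions opened and 149 closed, beside 4.3% and 9.72% of all regions. The edgeR adjusted p was then 0.054 at Esyt1, 0.074 at Plcg1, 0.061 at Cd2 and 0.077 at Tox. Same-numbered libraries did not deviate together (correlations of -0.02, -0.0776 and 0.0764), and not every library correlated best with its own number, so the labels' numbers were not taken to pair the libraries. Low counts limit what can be seen at the weakest wide regions, which held 1 to 25 counts in a library.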

Other observations

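Further called wide regions are named here, all chosen after their values were seen. Regions closed 38.9 kb from Nt5e, the gene of the adenosine-producing enzyme CD73 (log2 fold -1.72 ± 0.27, SE, n = 3 each; edgeR adjusted p = 0.0026), and 19.1 kb from Il10, an anti-inflammatory cytokine (-1.96 ± 0.36, adjusted p = 0.0059). A region 5.92 kb from Ptger2, a prostaglandin E2 receptor, closed too (-2.07 ± 0.25, adjusted p = 0.00077). So did regions inside Dgkh, a diacylglycerol kinase (-2.77 ± 0.46, adjusted p = 0.0036), Pfkfb3, a regulator of glycolysis (-1.61 ± 0.30, adjusted p = 0.0062), Dock10, a guanine nucleotide exchange factor (-1.61 ± 0.23, adjusted p = 0.0016), and Ubash3b, a phosphatase that dampens T cell receptor signals (-0.84 ± 0.16, adjusted p = 0.0079). These 7 passed with any 1 library left out. At Il10 the libraries with SMARTA cells were spread widely (log2 CPM 2.60 ± 1.04, SD, n = 3), and the left summit stayed in all 6 lists while the right was in 3 lists without and 1 with SMARTA cells.

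The next regions lost their call when some single library was left out, and the highest adjusted p over the left-out libraries is given for each. The region 24.7 kb from Ptprc, the gene of CD45 (-1.66 ± 0.34, edgeR adjusted p = 0.009), had an adjusted p of 0.052 without replicate 3 with SMARTA cells. Runx2, a Runt family factor (-0.99 ± 0.23, adjusted p = 0.017), reached 0.054 and lost the call without any 1 library lacking SMARTA cells. The region 20.4 kb from Nrp1, the gene of a semaphorin receptor (-0.77 ± 0.19, edgeR adjusted p = 0.024), reached 0.1. It lost the call without replicate 2 or 3 lacking SMARTA cells or replicate 3 with them. Among opened regions, St8sia1, a sialyltransferase (1.31 ± 0.30, adjusted p = 0.016), reached 0.057 and lost the call without replicate 1 lacking SMARTA cells or replicate 3 with them. Cytip, a regulator of lymphocyte adhesion (0.39 ± 0.10, adjusted p = 0.022), reached 0.072 and lost it without replicate 1 or 3 lacking SMARTA cells or replicate 3 with them. Il17ra, the interleukin 17 receptor (0.37 ± 0.09, adjusted p = 0.021), reached 0.078 and lost it without any 1 library lacking SMARTA cells or replicate 3 with them. The groups did not overlap in any of the regions named in this section.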
